A study of Mus musculus with 6 samples.

Results

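The genes described here encode 7 CC chemokines other than the monocyte-attracting group of Ccl2, namely Ccl3, Ccl4, Ccl5, Ccl6, Ccl9, Ccl22 and Ccl24. They were chosen by symbol, and all 7 were among the 16503 genes measured. Expression was measured by RNA-seq in liver macrophages of male wild type (WT) mice. The mice were put at 6 to 12 weeks of age on CDA-HFD, a choline-deficient high-fat diet that induces steatohepatitis, and were fed it for 7 weeks. From these livers, Ly6Clo F4/80+ Tim4- monocyte-derived macrophages were sorted by surface CD11c and Mincle into CD11chiMinclehi cells (n = 3 libraries) and CD11cloMinclelo cells (n = 3 libraries). All 6 libraries thus share the diet, the genotype and the Tim4- gate, and no library of a control diet is compared here. The cells are sorted pools, in which fewer cells of a type and less RNA per cell cannot be told apart. Titles name biological replicates 1 to 3 in each subset, without saying whether replicates that share a number also share a mouse, and p-values measure the spread between these libraries.

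CC chemokines are small secreted proteins that guide leukocytes through G protein-coupled receptors. Ccl3, Ccl4 and Ccl5 are inflammatory ligands that attract monocytes and T cells, and Ccl3 and Ccl5 act on Ccr1. Ccl6 and Ccl9 are ligands of Ccr1 known from rodents. Ccl22 attracts T cells, regulatory T cells among them, through Ccr4, and Ccl24, or eotaxin-2, attracts eosinophils through Ccr3. Macrophages are a known source of most of them.

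Levels are in TPM, the abundance of a transcript scaled by gene length and by the total of its library. Each log2 fold change is CD11chiMinclehi minus CD11cloMinclelo, computed on log2(TPM + 1), and is given with its standard error. A gene was called at a Benjamini-Hochberg adjusted p under 0.05 over all 16503 genes with limma. Libraries held an estimated 7.01 to 8.14 M reads (M for mega), which put between 69.2 (Ccl22) and 1982 (Ccl9) reads on each of the 7 genes in each library. The macrophage markers Adgre1, Cd68, Csf1r, Fcgr1, Mertk and Lyz2 were detected in every library, with a summed level of 3066 to 3178 TPM in CD11chiMinclehi and 3014 to 3368 TPM in CD11cloMinclelo macrophages. Of the genes of the gate, Itgax, which encodes CD11c, was at 327 ± 12.6 against 183 ± 12.6 TPM (SD, n = 3; log2 fold change 0.83 ± 0.06, adjusted p = 0.00467). Clec4e, which encodes Mincle, was at 365 ± 52.0 against 316 ± 60.8 TPM and did not pass (adjusted p = 0.655). It was higher in CD11chiMinclehi macrophages in all 3 pairs of libraries with the same number, as were 18.0% of all genes. With the replicate number as a block in limma it did not pass either (adjusted p = 0.0667). Timd4, which encodes Tim4, was at 0 to 3.77 TPM in all 6 libraries. The 2 libraries numbered 2 stood apart by T and NK cell markers, as described with Ccl5 below.

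Ccl3, Ccl4, Ccl5, Ccl6 and Ccl9 lie together on mouse chromosome 11 (GRCm38), within 138.9 kb. From the lower coordinate they are Ccl5 (83525778 to 83530518), Ccl9 (83572919 to 83578636), Ccl6 (83587882 to 83593087) and Ccl3 (83647844 to 83649355), all on the minus strand, and Ccl4 (83662584 to 83664683) on the plus strand. Ccl22 lies on chromosome 8 (94745590 to 94751699, plus strand) and Ccl24 on chromosome 5 (135569937 to 135573049, minus strand). All 7 are protein-coding genes.

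The promoters of Ccl6 and Ccl9 are shown because these neighbours were the 2 genes of the set whose CD11chiMinclehi libraries all lay above the CD11cloMinclelo libraries. RefSeq (GRCm38.p6) promoters of 300 bases, from 250 bases before to 50 after the start site, were at hand for 4 of the 7 genes, Ccl3, Ccl6, Ccl9 and Ccl22. Both sequences read 5′ to 3′ on the minus strand, and capitals mark the stretch in which they align with each other.
Ccl6, chr11:83593038-83593337: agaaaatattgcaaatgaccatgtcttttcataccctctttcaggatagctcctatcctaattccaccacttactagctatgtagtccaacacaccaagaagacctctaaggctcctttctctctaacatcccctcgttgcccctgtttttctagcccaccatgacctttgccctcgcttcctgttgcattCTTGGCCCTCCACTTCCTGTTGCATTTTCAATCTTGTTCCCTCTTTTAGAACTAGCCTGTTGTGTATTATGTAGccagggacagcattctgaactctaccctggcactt
Ccl9, chr11:83578587-83578886: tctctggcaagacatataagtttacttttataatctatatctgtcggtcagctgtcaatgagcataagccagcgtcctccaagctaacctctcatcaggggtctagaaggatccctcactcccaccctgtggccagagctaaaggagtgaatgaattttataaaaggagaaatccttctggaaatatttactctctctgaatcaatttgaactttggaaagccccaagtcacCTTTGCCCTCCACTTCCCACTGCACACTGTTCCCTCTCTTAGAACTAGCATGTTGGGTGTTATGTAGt
In this stretch 58 of 74 aligned columns are identical, and the local alignment score is 81 against 17 to 22 for the other 5 pairs among the 4 promoters. It lies from -59 to 14 in Ccl6 and from -18 to 48 in Ccl9, counted from 0 at the annotated start site. The longest shared run, gccctccacttcc, is 13 bases long and occurs on either strand in 6 (0.0183%) of 32851 RefSeq promoters of the same length. Outside the aligned stretch, the Ccl9 promoter holds the TATA box letters TATAAA at -92, with overlapping letters on the other strand at -94 and a further match on that strand at -224, and the AP-1 motif TGANTCA at -53. The NF-kappaB consensus matched once in Ccl9, on the other strand at -35. Over all promoters and both strands, TATAAA was present in 13.6%, TGANTCA in 7.81% and the NF-kappaB consensus in 8.46%. AGGAAGTG, an ETS-type motif found in 4.07% of promoters, matched Ccl6 on the other strand at -49, within the capitals. GAGGAA, found in 28.3%, matched only Ccl3 of the 4, and TGACGTCA, found in 1.79%, matched none. These are matches of letters, not sites of binding.

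The 7 genes were expressed in every library of both subsets. None was called between the subsets in the main fit, which did not use the replicate number, and 1 was called with that number as a block. With limma in the main fit 0 of 7 passed in either direction, although 5 of the 7 were under an unadjusted p of 0.05, as were 12.9% of all genes. Over all genes this test called 0.770% as higher and 0.454% as lower in CD11chiMinclehi macrophages. Their directions were split. Ccl6, Ccl9 and Ccl22 were higher in CD11chiMinclehi macrophages in all 3 pairs of libraries with the same number, and Ccl3, Ccl4, Ccl5 and Ccl24 were lower in all 3 pairs. Among all genes, 18.0% were higher and 19.2% lower in all 3 pairs. The groups did not overlap for 2 genes that were higher (Ccl6 and Ccl9) and for 1 that was lower (Ccl24), where 9.25% and 9.22% of all genes did so. With the replicate number as a block, Ccl9 alone passed, as higher (1 of 7, against 1.67% of all genes called as higher and 1.75% as lower), and all 7 were under an unadjusted p of 0.05, as were 16.6% of all genes. The median log2 fold change of the 7 genes was -0.17, and that of all genes -0.01.

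**Figure D1:**
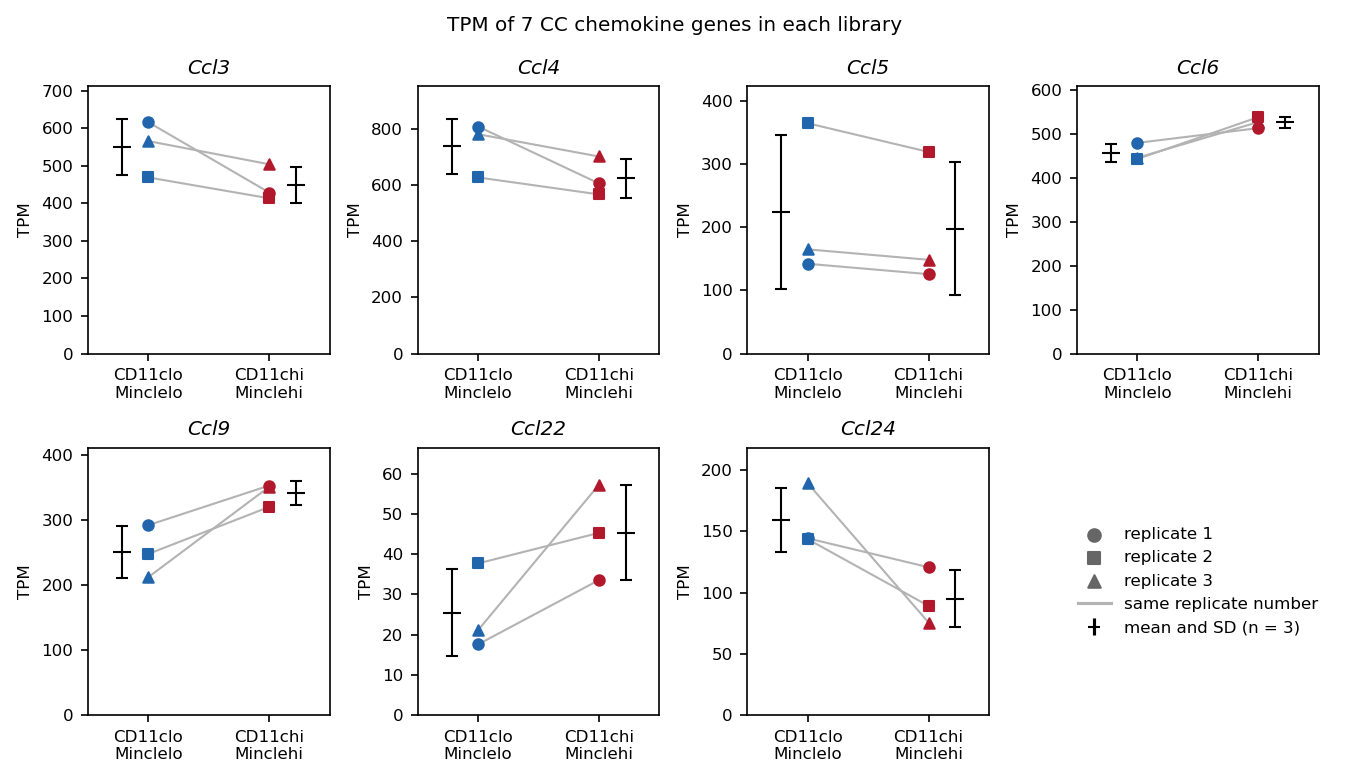
Levels of the 7 genes in TPM (y axes, from 0) in each library of CD11cloMinclelo (blue) and CD11chiMinclehi (red) macrophages. Shapes mark the replicate number, grey lines join the same number, and bars beside the points are the mean and SD of 3 libraries. Lines of Ccl6, Ccl9 and Ccl22 slope upward and those of the other genes downward, and for Ccl5 the lines lie apart by replicate number.

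The inflammatory ligand genes Ccl3 and Ccl4 were among the most abundant transcripts of these macrophages and moved together. Ccl4, which encodes MIP-1β, ranked 22 of 16503 genes by mean level, and Ccl3, which encodes MIP-1α, ranked 87. Ccl3 was at 429, 413 and 504 TPM in CD11chiMinclehi libraries 1, 2 and 3 and at 616, 469 and 566 TPM in CD11cloMinclelo libraries 1, 2 and 3. The groups overlapped, since the third CD11chiMinclehi library lay above the second CD11cloMinclelo library. The means were 449 ± 48.5 and 550.3 ± 74.7 TPM (SD, n = 3), a log2 fold change of -0.29 ± 0.11 (95% interval -0.54 to -0.04, limma adjusted p = 0.309).

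Ccl4 was at 605, 566 and 701 TPM in CD11chiMinclehi and at 808, 627 and 780.5 TPM in CD11cloMinclelo libraries. Its lowest library in each group was that numbered 2, as for Ccl3, and the groups overlapped in the same way. The means were 624 ± 69.4 and 738 ± 97.7 TPM, a log2 fold change of -0.24 ± 0.11 (95% interval -0.49 to 0.01, limma adjusted p = 0.418). The ratio of Ccl4 to Ccl3 stayed between 1.31 and 1.41 in the 6 libraries. Their log2 levels correlated at 0.987 over these 6 libraries, which share their group structure and replicate numbers. The pair numbered 1 differed most, with a CD11chiMinclehi level of 0.696 (Ccl3) and 0.749 (Ccl4) times the CD11cloMinclelo level, against 0.881 to 0.904 in the other pairs.

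Ccl5, which encodes RANTES and is made by T cells and NK cells as well as macrophages, differed more between replicate numbers than between the subsets. It was at 125 (library 1), 319 (library 2) and 148 (library 3) TPM in CD11chiMinclehi macrophages. In CD11cloMinclelo macrophages it was at 142, 364 and 165 TPM, so both libraries numbered 2 were above the other 4. The means were 197 ± 106 and 224 ± 122 TPM, and the log2 fold change was -0.17 ± 0.43 (95% interval -1.16 to 0.82, limma adjusted p = 0.928). In fits without the block, leaving out the first CD11chiMinclehi library gave a log2 fold change of 0.09. Leaving out the second CD11cloMinclelo library gave 0.24, so the direction without the block changed with single libraries. Each of these fits kept 1 library without its partner of the same number. Within pairs, the CD11chiMinclehi level was 0.884, 0.875 and 0.900 times the CD11cloMinclelo level. With both libraries numbered 2 left out, an alternative chosen after seeing the data, the log2 fold change was -0.16 (adjusted p = 0.711).

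T and NK cell markers were also highest in the libraries numbered 2. The 6 T cell markers summed to 17.1, 190 and 43.1 TPM in CD11chiMinclehi libraries 1, 2 and 3. In CD11cloMinclelo libraries they summed to 5.29, 283 and 88.0 TPM. In the libraries numbered 1, Cd3d, Cd3e, Cd3g and Cd8a, of the T cell receptor complex and its coreceptor, were at 0 to 0.942 TPM in both. Cd4 was at 12.2 and 3.99 TPM and Trac at 3.94 and 0 TPM there, in CD11chiMinclehi and CD11cloMinclelo macrophages. The 6 NK cell markers summed to 15.5, 220 and 123 TPM in CD11chiMinclehi and 18.9, 337 and 130 TPM in CD11cloMinclelo libraries. None of the 12 T and NK cell markers passed between the subsets. Within each subset the libraries had the same order by Ccl5 and by either sum. The order was also the same by the sum of 5 neutrophil markers, so it is not particular to T and NK cells. The neutrophil sums were 267, 469 and 467 TPM in CD11chiMinclehi libraries 1, 2 and 3 and 251, 559 and 551 TPM in CD11cloMinclelo libraries. The part of T, NK or other cells in the Ccl5 level of the libraries numbered 2 was not tested. The gate excluded CD90.2+ and NK1.1+ cells.

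**Figure D2:**
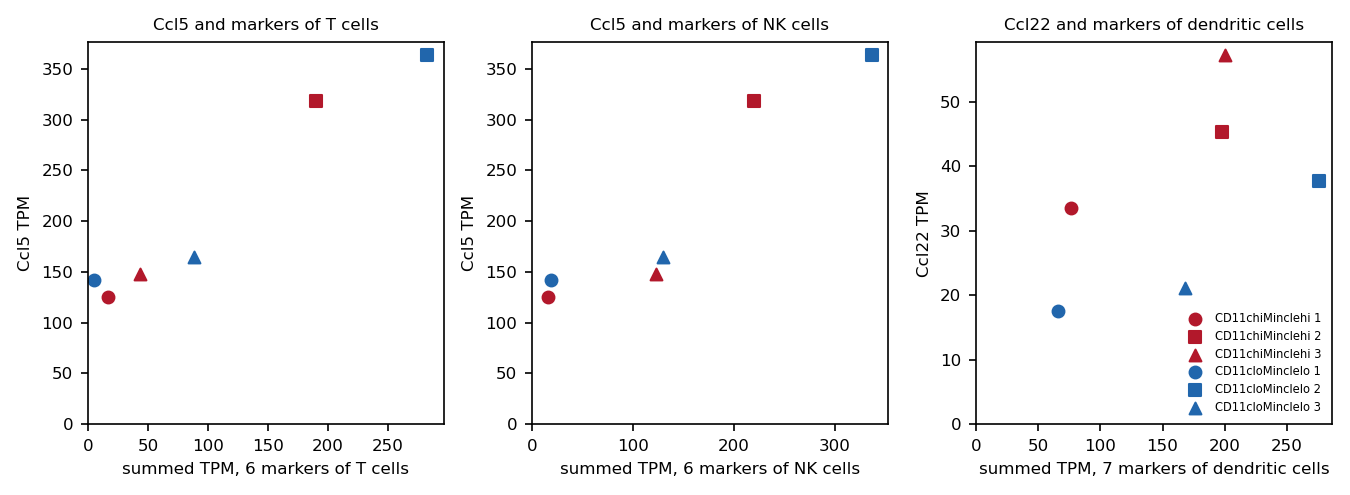
Ccl5 in TPM against the summed TPM of 6 T cell markers (left) and 6 NK cell markers (middle), and Ccl22 in TPM against 7 dendritic cell markers (right), 1 point per library. Colours mark the subset (red CD11chiMinclehi, blue CD11cloMinclelo) and shapes the replicate number. The 2 libraries numbered 2 lie at 319 and 364 TPM of Ccl5, apart from the others at 125 to 165 TPM.

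The Ccr1 ligands Ccl6 and Ccl9 were both higher in every CD11chiMinclehi library than in any CD11cloMinclelo library. Ccl6, also called C10, was at 514, 539 and 528 TPM in CD11chiMinclehi and at 480.4, 444 and 447 TPM in CD11cloMinclelo libraries. It had the smallest spread of the 7 genes, with a coefficient of variation of 2.38% and 4.47%. The means were 527 ± 12.5 and 457 ± 20.4 TPM (SD, n = 3), a log2 fold change of 0.21 ± 0.04 (95% interval 0.10 to 0.31), and it did not pass (limma adjusted p = 0.0794). After quantile normalization of the libraries it passed (adjusted p = 0.0488), within a range of 0.0488 to 0.472 over the 15 alternatives.

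Ccl9, also called MIP-1γ, was at 353, 320.4 and 352 TPM in CD11chiMinclehi libraries. In CD11cloMinclelo libraries it was at 292, 248 and 212 TPM, so that the lowest CD11chiMinclehi library lay above the highest CD11cloMinclelo library. The means were 342 ± 18.5 and 251 ± 40.1 TPM, a ratio of 1.36 and a log2 fold change of 0.46 ± 0.11 (95% interval 0.20 to 0.71), with a limma adjusted p of 0.112. With the replicate number as a block it passed (SE 0.09, adjusted p = 0.0417), within a range of 0.0417 to 0.419 over the 15 alternatives. With both libraries numbered 2 left out it was at a log2 fold change of 0.50, and it did not pass with the block (adjusted p = 0.232). No gene passed in that smaller set, where 1074 were higher and 1126 lower at an unadjusted p under 0.05.

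The log2 levels of Ccl6 and Ccl9 correlated at 0.900 over the 6 libraries, a value that includes the step between the subsets. Within CD11chiMinclehi macrophages the second library was highest for Ccl6 and lowest for Ccl9. Within CD11cloMinclelo macrophages the first library was highest for both, and the lowest was the second for Ccl6 and the third for Ccl9. The ratio of Ccl6 to Ccl9 was 1.45 to 1.68 in CD11chiMinclehi and 1.64 to 2.10 in CD11cloMinclelo macrophages, so it overlapped between the subsets. E230016K23Rik, a noncoding transcript on the opposite strand that overlaps Ccl6, was at 6.34, 6.20 and 6.06 TPM in CD11chiMinclehi libraries. It was at 0, 1.44 and 0.554 TPM in CD11cloMinclelo libraries, all below the CD11chiMinclehi libraries, and did not pass (log2 fold change 2.21 ± 0.47, adjusted p = 0.0779). Since the strand setting of the counting is not given in the sources used here, reads of this transcript and of Ccl6 cannot be told apart where they overlap.

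**Figure D3:**
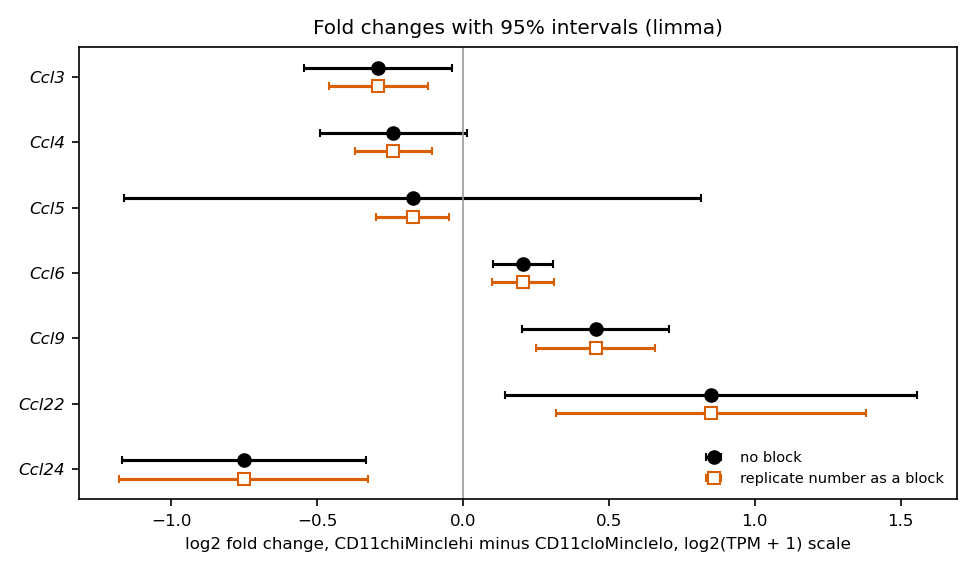
Log2 fold changes of the 7 genes (x axis, CD11chiMinclehi minus CD11cloMinclelo, log2(TPM + 1) scale) with 95% intervals from limma, without a block (black circles) and with the replicate number as a block (orange squares). The interval of Ccl5 narrowed most with the block, from -1.16 to 0.82 down to -0.30 to -0.05, whereas that of Ccl24 stayed near -1.17 to -0.33.

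The Ccr4 ligand Ccl22 was the least abundant of the 7 genes and had the largest log2 fold change among them. It was at 33.6, 45.3 and 57.3 TPM in CD11chiMinclehi and at 17.6, 37.7 and 21.1 TPM in CD11cloMinclelo libraries. The second CD11cloMinclelo library lay above the first CD11chiMinclehi library, so the groups overlapped. The means were 45.4 ± 11.9 and 25.5 ± 10.7 TPM (SD, n = 3), a log2 fold change of 0.85 ± 0.30 (95% interval 0.15 to 1.56, limma adjusted p = 0.287). Within pairs the CD11chiMinclehi level was 1.91, 1.20 and 2.71 times the CD11cloMinclelo level.

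Ccl22 is also known from mature dendritic cells. The 7 dendritic cell markers (Zbtb46, Flt3, Ccr7, Cd209a, Xcr1, Clec9a and Fscn1) summed to 76.6, 198 and 199.9 TPM in CD11chiMinclehi libraries. In CD11cloMinclelo libraries they summed to 65.9, 276 and 168 TPM, and 0 of 7 passed. Within each subset the libraries had the same order by Ccl22 and by this sum. The order was also the same by the sum of 5 markers of stellate cells and fibroblasts, so it is not particular to dendritic cells. That second sum was 92.0, 106 and 119 TPM in CD11chiMinclehi libraries 1, 2 and 3 and 151, 209 and 175 TPM in CD11cloMinclelo libraries. In the pairs numbered 1 and 3, both Ccl22 and the dendritic cell sum were higher in CD11chiMinclehi macrophages. In the pair numbered 2, Ccl22 was higher there while the dendritic cell sum was lower. The part of dendritic or other cells in the Ccl22 level was not tested. Ccl17, which encodes the other Ccr4 ligand and lies near Ccl22, was at 4.22, 0 and 7.35 TPM against 1.15, 0.997 and 10.4 TPM and did not pass (adjusted p = 0.998).

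The Ccr3 ligand Ccl24 was lower in every CD11chiMinclehi library than in any CD11cloMinclelo library. It was at 121, 89.1 and 75.5 TPM in CD11chiMinclehi libraries. In CD11cloMinclelo libraries it was at 144, 144 and 189 TPM. The means were 95.1 ± 23.2 and 159 ± 26.1 TPM (SD, n = 3), a ratio of 0.598 and a log2 fold change of -0.75 ± 0.18 (95% interval -1.17 to -0.33). It did not pass without (limma adjusted p = 0.113) or with the block (adjusted p = 0.0855). The pairs spread widely, with CD11chiMinclehi levels of 0.836, 0.620 and 0.399 times the CD11cloMinclelo levels.

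Markers of Kupffer cells, the resident macrophages of the liver, had lower sums in CD11chiMinclehi macrophages, as did Ccl24. Clec4f, Timd4, Vsig4 and Cd5l summed to 254 to 598 TPM in CD11chiMinclehi and 986 to 1619 TPM in CD11cloMinclelo macrophages, and 0 of 4 passed without and 3 of 4 (Clec4f, Vsig4 and Cd5l) with the block. In CD11chiMinclehi macrophages the third library had the highest marker sum and the lowest Ccl24, whereas in CD11cloMinclelo macrophages the third library had the highest of both. Other marker sums were lower without overlap as well. The 5 markers of stellate cells and fibroblasts summed to 92.0 to 119 against 151 to 209 TPM, all 5 had log2 fold changes below 0, and Dcn passed (adjusted p = 0.0253). The 4 B cell markers summed to 111 to 159 against 182 to 222 TPM, and 0 of 4 passed. The part of any of these cells in the Ccl24 level was not tested. Of the 4 eosinophil markers sought, Ccr3 and Il5ra were in the table, at a sum of 8.79 to 12.2 TPM against 11.9 to 23.1 TPM, and Prg2 and Epx had no row.

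The order of the levels within a library also differed in part. In all 3 CD11chiMinclehi libraries it was Ccl4, Ccl6, Ccl3, Ccl9, Ccl5, Ccl24 and Ccl22 from high to low. In all 3 CD11cloMinclelo libraries Ccl3 came before Ccl6, and Ccl4 was again first and Ccl22 last. In CD11chiMinclehi macrophages the ranges of neighbours in this order did not overlap. In CD11cloMinclelo macrophages those of Ccl3 and Ccl6, of Ccl9 and Ccl5, and of Ccl5 and Ccl24 overlapped. Together the 7 genes took 0.219% to 0.251% of all TPM, or 2181 to 2500.5 TPM per library. Ranks by mean level were 96 for Ccl6, 500 for Ccl9, 1117 for Ccl5, 2492 for Ccl24 and 6924 for Ccl22.

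The spread of fold changes over all genes narrows with the level. The SD of the log2 fold change was 0.40 for genes at 20 to 50 TPM, 0.28 at 50 to 200 TPM, 0.21 at 200 to 400 TPM and 0.14 at 400 TPM or more. Among genes within 1.25-fold of its level, 2.05% had a log2 fold change at least as large in size as that of Ccl24, 3.93% as that of Ccl9 and 4.02% as that of Ccl22. For Ccl4 and Ccl3 these shares were 4.92% and 5.88%, and for Ccl6 and Ccl5 17.7% and 22.7%. These shares describe size only, without the spread between libraries.

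**Figure D4:**
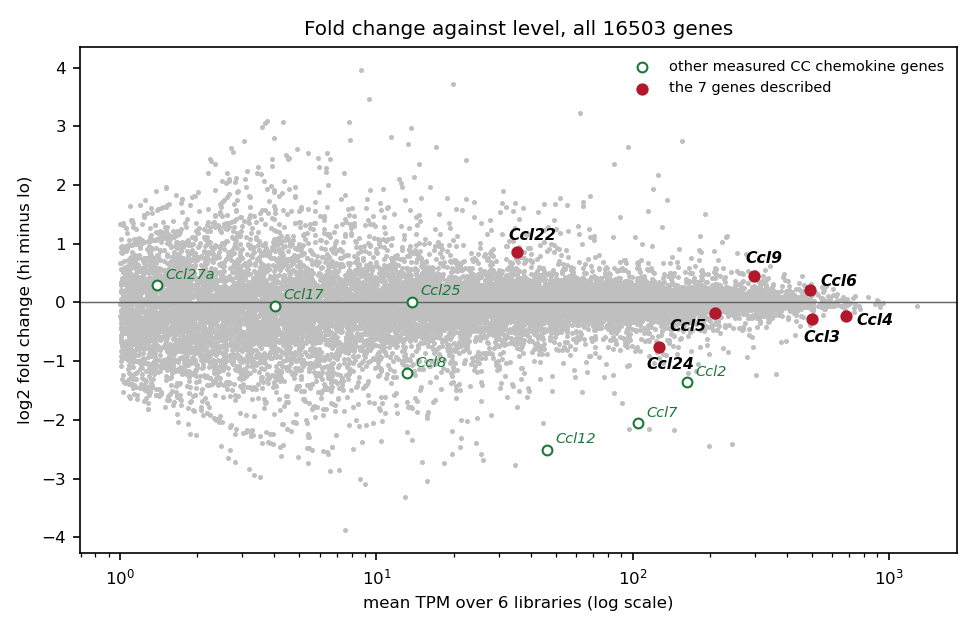
Log2 fold change (y axis, CD11chiMinclehi minus CD11cloMinclelo) against the mean TPM of 6 libraries (x axis, log scale) for 16503 genes (grey). The 7 genes are in red and the 7 other measured CC chemokine genes are open green circles. Ccl22 and Ccl24 lie farthest from 0 among the 7, at 0.85 and -0.75, while Ccl2, Ccl7 and Ccl12 lie at -1.36, -2.06 and -2.51.

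Other CC ligands and the receptors give the setting of the 7 genes. Of 14 other CC chemokine genes listed, 7 were measured, and 0 were called as higher and 3 as lower in CD11chiMinclehi macrophages, and their log2 fold changes had a median of -1.21. The 3 were the Ccr2 ligands Ccl2, Ccl7 and Ccl12. Ccl8, which lies in the same cluster, was at 2.12, 26.0 and 3.17 TPM against 13.9, 22.1 and 11.6 TPM and did not pass (adjusted p = 0.587). Leaving out the first CD11chiMinclehi library took the 3 calls to 0, leaving out either other CD11chiMinclehi library took them to 2, and leaving out any 1 of the CD11cloMinclelo libraries took them to 1.

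Of the receptors described, Ccr1, Ccr3 and Ackr1, none of the 3 passed without or with the block. Ccr1, which binds Ccl3, Ccl5, Ccl6 and Ccl9, was at 169 ± 7.62 against 176 ± 23.5 TPM (adjusted p = 0.904). Ccr3, which binds Ccl24, was at 8.79, 6.17 and 11.6 TPM against 11.9, 11.6 and 16.5 TPM and was lower in all 3 pairs (adjusted p = 0.496).

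Genes of inflammatory activation, many of them induced with Ccl3 and Ccl4 in stimulated macrophages, were mostly not called. Of 20, 0 were called as higher and 1 as lower, and the median of their log2 fold changes was -0.10. The 1 was Cxcl10, which encodes a ligand of Cxcr3, at 221 ± 20.4 against 300 ± 13.3 TPM (adjusted p = 0.0386), and the block added Il12b (adjusted p = 0.0122). Il1b and Nfkbia, the most abundant of the list, were at 692 ± 24.2 against 773 ± 60.5 TPM and 564 ± 19.7 against 590.4 ± 51.0 TPM. The call of Cxcl10 was lost when any library but the third CD11chiMinclehi library was left out. Of the 20 genes, 6 had log2 fold changes above and 14 below 0. In all 3 pairs of libraries with the same number, 10 were lower and 1 was higher, as were 19.2% and 18.0% of all genes.

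Immediate early genes, which cell isolation can induce, were abundant in both subsets. Of 17, none passed without the block, the median log2 fold change was -0.05, and Fos (727 ± 12.4 against 746 ± 60.3 TPM) and Junb (703 ± 6.46 against 706 ± 56.4 TPM) were the most abundant. With the block 1 was lower, Ier2 (364 ± 34.8 against 444 ± 50.5 TPM, adjusted p = 0.0144). Their part in the levels of Ccl3 and Ccl4 was not tested.

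Genes of alternative activation, to which Ccl22 and Ccl24 are often assigned, were split in direction. None of 15 passed without the block, 7 were above and 8 below 0, and their median log2 fold change was -0.15. With the block 1 was called as higher, the lectin gene Mgl2 (20.6 ± 8.46 against 5.31 ± 2.00 TPM, adjusted p = 0.0263). Stat6 (356 ± 4.58 against 349.98 ± 3.95 TPM) and Tgm2 (297 ± 4.25 against 350.1 ± 22.9 TPM) were the most abundant and did not pass.

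Type I interferon response genes had lower means in CD11chiMinclehi macrophages, most of them short of the test. Of 16, 0 were called as higher and 2 as lower, the transcription factor gene Irf7 (234 ± 15.3 against 353 ± 23.6 TPM, adjusted p = 0.0170) and the interferon regulator gene Usp18 (108 ± 13.9 against 168 ± 8.29 TPM, adjusted p = 0.0308). With the block 11 were called as lower, which included Oasl2 (200.1 ± 21.7 against 261 ± 19.1 TPM, adjusted p = 0.0206), Ifit3 and Stat2. All 16 had log2 fold changes below 0, and their median was -0.49. Without 1 library, 0 to 5 were called, the 5 when the third CD11chiMinclehi library was left out.

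**Figure D5:**
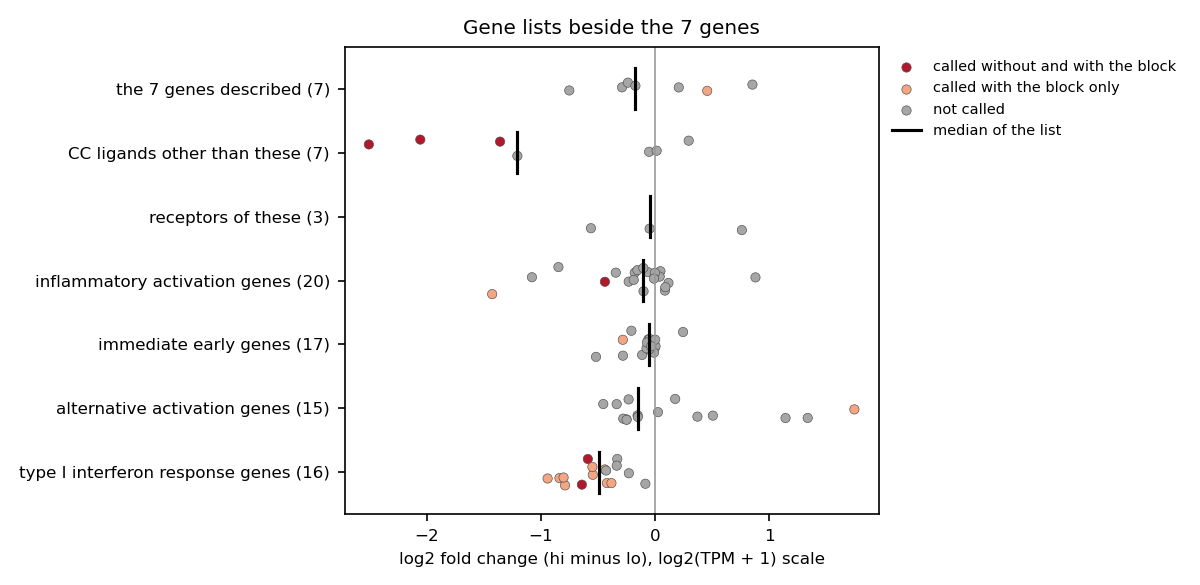
Log2 fold changes (x axis, CD11chiMinclehi minus CD11cloMinclelo, log2(TPM + 1) scale) of the 7 genes and of the genes of 6 lists, 1 point per gene with the number of genes in brackets. Dark red points passed without and with the block, light points with the block only and grey points with neither, and black bars are medians, which run from -1.21 (other CC ligands) to -0.05 (receptors and immediate early genes).

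Neighbouring genes were mostly not called. Of the genes within 100 kb on chromosome 11, Wfdc17 and Wfdc18, which encode small whey acidic protein domain proteins beside Ccl4, passed with the block as lower. Wfdc17 was at 368, 394 and 396 TPM against 500.2, 431 and 519 TPM (log2 fold change -0.32 ± 0.07, adjusted p = 0.0971 without and 0.0485 with the block). Wfdc18 was at 6.25, 9.96 and 15.5 TPM against 15.8, 24.6 and 35.2 TPM (log2 fold change -1.19 ± 0.38, adjusted p = 0.237 without and 0.0300 with the block). Taf15, Rpl9-ps1, Gm11429, Wfdc21 and Heatr6 did not pass with either model.

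Near Ccl24, Hip1, Gm42731, Rhbdd2, Gm15607 and Por did not pass with either model. Near Ccl22, the same held for Rspry1, Arl2bp, Cx3cl1, Ccl17, Ciapin1 and Coq9. Por, which encodes the electron donor of cytochrome P450 enzymes, was the most abundant of these 11 genes, with a mean of 314 TPM and a log2 fold change of 0.21 ± 0.07 (adjusted p = 0.237).

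The genes whose log2 levels followed each of the 7 most closely were sought among 9705 genes with a mean of at least 10 TPM, by Pearson correlation over the 6 libraries. For Ccl3 these were Ccnl1 (0.994) and Wnk1 (0.990), and for Ccl4 Msh3 (0.992) and Ccl3 (0.987). For Ccl5 they were Serpina3g (0.997) and Ccnd3 (0.987). Serpina3g was at 31.0, 83.9 and 36.1 TPM against 34.9, 107 and 39.0 TPM, and so was highest in the libraries numbered 2, like Ccl5. Nr2c1 (0.992) and Tsga10 (0.989) were closest to Ccl6, Zfp771 (0.993) and Hbp1 (0.990) to Ccl9, Gnpat (0.994) and Adal (0.992) to Ccl22, and Naa60 (0.991) and Gna15 (0.988) to Ccl24. With 9705 genes compared over 6 libraries such values are a description, and none of these genes other than Ccl3 belongs to the 7. Among the 7 themselves, the pairs farthest from 0 after Ccl3 with Ccl4 and Ccl6 with Ccl9 were Ccl6 with Ccl24 (-0.88) and Ccl22 with Ccl24 (-0.84).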

How the data were processed

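Polyadenylated RNA of sorted macrophages was made into directional libraries and sequenced from both ends. Per the labels and the study's methods, trimming used Trimmomatic 0.39.0, alignment to GRCm38 (mm10) used HISAT2 2.2.1, Picard removed duplicates, and featureCounts 2.0.1 gave reads per gene. From these the authors computed TPM, the unit of the deposited table. Neither the strand setting nor the annotation release is given in the sources used here. The effect of duplicate removal on short, abundant transcripts was not tested. All 16503 genes of the table had a mean of at least 1.00 TPM.

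TPM was tested as log2(TPM + 1), a scale that understates changes of low genes, with limma 3.58.1 in R 4.3.3 (empirical Bayes, mean-variance trend, two-sided, both groups) without and, as an alternative, with the replicate number as a block. As a check of pairing, each library was centred on its group mean, and same-numbered libraries then correlated over genes at 0.36, 0.20 and 0.12. Libraries of the 2 subsets with different numbers correlated at -0.24 to 0.06. The same-numbered values were all over 0.1, and the libraries were taken as paired by number in the comparisons within pairs and in the fits with the block. The main fit and the fits with 1 library left out did not use the pairing. The pairing rests on the values and on the numbers in the titles, not on a stated mouse. Other alternatives were pseudocounts of 0.1 and 5, a minimum mean of 5 TPM, no trend, median centring, quantile normalization and leaving out libraries. Genes without any spread in the libraries kept (17 to 43 with 1 library left out) were left out of those fits. The tests were checked on simulated data.

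TPM gives no depth directly. It was inferred from the spacing of the lowest values, using exon lengths of the mouse GENCODE release M21, in which 16104 genes (97.6%) had a unique symbol. The step was required to place the lowest values at 1 read, and 81.0% to 88.1% of low values then lay within 0.05 of a whole number of reads, so these depths are approximate.

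The 7 genes, the gene lists and the tests were chosen with earlier results of these data known. Named are the 7 genes, the called and the 2 most abundant genes of each functional list, the 2 genes closest to each of the 7, neighbours within 100 kb, Ccl8 and the gate genes. A receptor gene is not reported here. Genes called with the block only, and markers, were named after their values were seen.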

Additional observations from a re-analysis of the deposited data

How the results depend on the processing

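Of the 7 genes, 6 kept their direction under all 15 alternatives. Ccl5 reversed without the first CD11chiMinclehi library (0.0897) and without the second CD11cloMinclelo library (0.243). Ccl6 passed after quantile normalization (0.19, adjusted p = 0.0488) and Ccl9 with the replicate block (0.46, adjusted p = 0.0417), so that 1 of the 7 was called as higher with either. With 1 library left out, no gene of the 7 passed, and log2 fold changes ran from -0.40 to -0.20 (Ccl3), -0.35 to -0.17 (Ccl4), -0.58 to 0.24 (Ccl5), 0.19 to 0.24 (Ccl6), 0.34 to 0.57 (Ccl9), 0.63 to 1.16 (Ccl22) and -0.94 to -0.60 (Ccl24). The block changed no other call of the 7.

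Over all genes, 127 were called as higher and 75 as lower. These counts were 8 and 11 without the trend, 201 and 138 after quantile normalization, 275 and 289 with the replicate block, and 41 lower after median centring. With 1 library left out they were 4 to 40 higher and 2 to 52 lower, and with both libraries numbered 2 left out, without or with the block, 0 and 0. The cause was not tested, beyond the fewer libraries in the fit. With the replicate block, counts of lower genes were 2 for inflammatory activation, 1 for immediate early and 11 for interferon response genes, and 1 alternative activation gene was higher. With 1 library left out, counts of lower genes were 0 to 2 for other CC ligands, 0 to 1 for inflammatory activation and 0 to 5 for interferon response genes. Estimated reads per library limit Ccl22 most.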
